A study of Rattus norvegicus with 6 samples.

Results

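The sodium, pacemaker and gap junction channel genes described here are Scn4b, Hcn2, Hcn4, Gja1 and Gja5, chosen by symbol. Every probe set (the group of short probes whose signal is summarised to 1 value) that the platform annotation ties to one of these symbols alone was taken, which gave 8 of the 31042 probe sets tested. Scn4b, Hcn2 and Hcn4 had 1 probe set each, Gja1 had 3 and Gja5 had 2, out of 14217 genes with a probe set of their own. The heartbeat depends on these genes at successive steps. Voltage-gated sodium channels carry the fast inward current that starts the action potential in working myocytes, hyperpolarisation-activated HCN channels carry the pacemaker current of the sinoatrial node and conduction tissue, and connexins form the gap junctions through which the impulse passes from cell to cell. In adult ventricle Gja1 encodes the main connexin of the working myocytes, while Gja5 is known mainly from atrial myocytes, Purkinje fibres and arterial endothelium.

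Left ventricular tissue came from male Wistar rats that started on 1 of 3 diets at 6 weeks of age and stayed on it for 12 weeks, so that they were 18 weeks old at collection after an overnight fast. One group ate the control diet (Control), another ate a Western diet (Western), and the last ate the Western diet with docosahexaenoic acid, a polyunsaturated fatty acid of fish oil (Western plus DHA). Each diet had 10 rats and 2 Affymetrix arrays, each array carrying RNA pooled from 5 rats, so the errors below describe 2 pools a diet and not single rats. Values are log2 expression values, on which a difference of 1 is a doubling, and the median over all probe sets and arrays was 5.34. A probe set whose highest diet mean lay below that median is called dim, and levels of different probe sets are not compared because each has its own response.

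The tissue read as heart muscle on every array, with a mean of 13.2 to 13.3 over the 6 measured cardiomyocyte markers of 7 listed. The atrial markers did not stay level. Over the 5 measured of 6 listed their mean was 7.19 on Western 1 and between 8.05 and 8.97 on the other 5 arrays. Myl7, the atrial myosin regulatory light chain, read 7.64 and 8.38 in Control, 5.39 and 9.65 in Western and 10.09 and 9.53 in Western plus DHA. Western 1 stood apart, and both Western plus DHA arrays were above both Control arrays, as for 22% of all probe sets. The atrial light chain gene Myl4 and Sln, the sarcolipin gene, shared both features, so 3 of the 5 were lowest on Western 1. The remaining Dkk3 and Stard10 did not, with log2 differences of -0.08 and -0.57 in Western plus DHA against Control. The mean log2 gap between 3' and 5' probe sets of 4 spiked poly-A controls, which are not rat RNA, was widest on Control 1. It was 1.06 on Control 1 against 0.716 to 0.796 on the other arrays. The gap for Gapdh was also widest there, at 0.678 against 0.301 to 0.469, while that for beta-actin was 1.82 there and 1.87 on Western plus DHA 1, against 1.48 to 1.54 elsewhere. In tissue RNA, fewer cells of a type and less RNA per cell cannot be told apart.

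Across the 3 diets none of the 8 probe sets passed the test (limma on the 6 arrays, adjusted p by Benjamini-Hochberg over 31042 probe sets, threshold 0.05). In the whole table the share called was 0% in Western against Control, 0.00322% for Western plus DHA compared with Control and 0% for Western plus DHA compared with Western, so a count of 0 of 8 does not stand apart from the table. The lowest adjusted p among the 8 was 1, 0.591 and 0.983 in the same order. At an unadjusted p under 0.05 stood 1, 0 and 0 of the 8, where the whole table had 2.83%, 8.87% and 4.06%. The arrays of both diets did not overlap for 2, 2 and 3 of the 8, while they did not for 30.9%, 37.2% and 35.5% of all probe sets. For 0 of the 8 both Western plus DHA arrays were above both Control arrays, which held for 22% of all probe sets. For 2 of the 8 both were below, which held for 15.1%. With 8 probe sets from 5 genes, these counts are too few to show a direction. The median log2 difference of the 8 was -0.08, -0.08 and -0.11, beside 0.01, 0.03 and 0.01 over all probe sets. The first pair of comparisons share the Control arrays and the last pair share the Western plus DHA arrays, so their values are not independent.

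**Figure D1:**
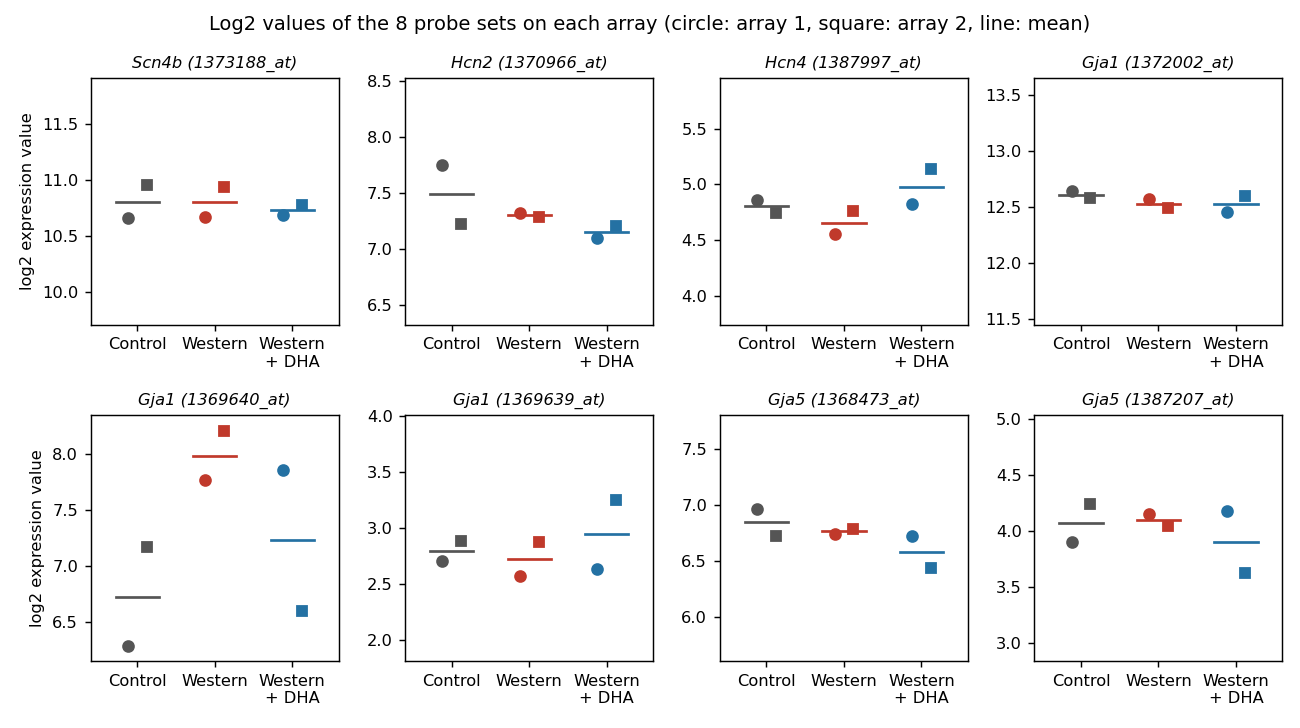
Log2 expression value (y axis) of each of the 8 probe sets on the 2 arrays of each diet (x axis), with circles for array 1, squares for array 2 and a line for the mean. All panels span the same log2 range, and the Gja1 probe set 1369640_at spreads from 6.29 to 8.21 while the Gja1 probe set 1372002_at stays between 12.46 and 12.64.

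Scn4b encodes a beta subunit of voltage-gated sodium channels, a single-pass membrane protein that joins the pore-forming alpha subunit and modifies its gating. Its probe set 1373188_at read 10.66 and 10.96 in Control, 10.67 and 10.94 in Western and 10.69 and 10.78 in Western plus DHA. The arrays of all 3 diets overlapped, and the means lay closer together than the arrays of one diet. The log2 difference was -0.01 ± 0.154 (SE, n = 2 pools a diet) in Western against Control, with a 95% confidence interval from -0.36 to 0.35, and -0.08 ± 0.154 in Western plus DHA against Control. The latter interval, from -0.43 to 0.28, holds levels between 0.743 and 1.21 times that of Control, and these arrays cannot tell levels within that span apart. From highest to lowest the diets stood as Control, Western and Western plus DHA, and no neighbours in that order differed beyond their spread.

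Hcn2 encodes the HCN isoform best known from working ventricle and brain, with faster opening than that of Hcn4. Its probe set 1370966_at read 7.76 and 7.23 in Control, 7.33 and 7.29 in Western and 7.10 and 7.21 in Western plus DHA. Control 1 was high, and the other 5 arrays lay within 7.10 to 7.33. The Western plus DHA arrays were below both the Control and the Western arrays, which held for 15.1% and 16% of all probe sets. The log2 difference in Western plus DHA against Control was -0.34 ± 0.177 (limma adjusted p = 0.591), with an interval from -0.75 to 0.07, and that in Western against Control was -0.18 ± 0.177. Without Control 1 these were -0.08 and 0.08, and without Control 2 they were -0.60 (adjusted p = 0.162) and -0.45. Control 1 is the array with the widest gap between 3' and 5' poly-A controls, and whether that bears on its Hcn2 value was not tested. The order of the means was Control, Western, Western plus DHA, and no neighbours passed the test.

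Hcn4 encodes the main HCN isoform of the sinoatrial node, with slow opening, and is scarce in adult working ventricle. Its probe set 1387997_at was dim, at 4.86 and 4.75 in Control, 4.56 and 4.76 in Western and 4.82 and 5.14 in Western plus DHA. Both Western plus DHA arrays were above both Western arrays, which held for 19.5% of all probe sets, and the Control arrays overlapped both. The log2 difference in Western plus DHA against Western was 0.32 ± 0.151 (limma adjusted p = 0.983), with an interval from -0.03 to 0.66. It was 0.22 without Western 1 and 0.16 without Western plus DHA 2, the array with the highest reading. The mean of the atrial markers was 7.19 on Western 1, the lowest Hcn4 array, and 8.65 on Western plus DHA 2, the highest Hcn4 array. Over the 6 arrays that mean ranged from 7.19 to 8.97, and the part of atrial tissue in the Hcn4 value was not tested. The 6 conduction system markers, of which Hcn4 is one, had means of 4.34 to 4.52 over the arrays, and 1 of the 6 reached the median level. In the order Western plus DHA, Control, Western no neighbours passed the test.

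Among the 8 probe sets, those of Gja1 had both the narrowest and the widest range over the 6 arrays. Its brightest probe set, 1372002_at, read 12.64 and 12.58 in Control, 12.57 and 12.49 in Western and 12.46 and 12.60 in Western plus DHA. Of all probe sets 6.89% had a smaller range. Both Western arrays were just below both Control arrays, as for 13.5% of all probe sets, and Western plus DHA overlapped both. The log2 difference was -0.08 ± 0.124 in Western against Control, -0.08 ± 0.124 in Western plus DHA against Control and 0.00 ± 0.124 in Western plus DHA against Western. The first of these had an interval from -0.36 to 0.20, which holds levels from 0.777 to 1.15 times that of Control. By this probe set the main ventricular connexin did not pass the test in any comparison.

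The Gja1 probe set 1369640_at gave another picture. It read 6.29 and 7.17 in Control, 7.77 and 8.21 in Western and 7.86 and 6.60 in Western plus DHA. Both Western arrays were above both Control arrays, as for 17.5% of all probe sets, while the Western plus DHA arrays lay far apart. Its range over the 6 arrays was 1.92, and 0.158% of probe sets had a wider one. The log2 difference in Western against Control was 1.26 ± 0.411, a 2.40-fold higher level with an interval from 1.25 to 4.60, and it was the second largest of all 31042 in absolute size. By p it ranked 200 (unadjusted p = 0.0148, limma adjusted p = 1), because its arrays within a diet also differed widely, with an SD of 0.623 in Control, 0.315 in Western and 0.893 in Western plus DHA. The difference was 0.82 without Control 1 and 1.70 without Control 2. In Western plus DHA it stood at 0.50 ± 0.411 over Control and at -0.76 ± 0.411 against Western, and leaving out Western plus DHA 1 turned the first to -0.13 and the second to -1.39, while leaving out array 2 of that diet gave 1.13 and -0.13.

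The 3rd Gja1 probe set, 1369639_at, was dim. It read 2.71 and 2.88 in Control, 2.57 and 2.87 in Western and 2.63 and 3.25 in Western plus DHA, and all diets overlapped. Its log2 differences were -0.07, 0.15 and 0.22 for Western compared with Control, then Western plus DHA compared with Control, and last with Western. In Western against Control the 3 Gja1 probe sets spanned 1.34 log2 units. Among the 4525 genes with more than 1 probe set, 2 (0.0442%, Gja1 among them) had a span that wide, and the median span was 0.174. The deposited files and annotation used here do not give the probes' positions in the transcript, so which part of the Gja1 message each one reads was not analysed. The reading of Control 1, lowest for 1369640_at and highest for 1372002_at, stands beside its wider gap between 3' and 5' poly-A controls, whose part was not tested.

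Gja5 had a bright and a dim probe set. The bright one, 1368473_at, read 6.97 and 6.72 in Control, 6.74 and 6.79 in Western and 6.72 and 6.44 in Western plus DHA. Both Western plus DHA arrays were below both Control and both Western arrays, which held for 15.1% and 16% of all probe sets. Western plus DHA 1 at 6.7201 lay next to Control 2 at 6.7203. The log2 difference in Western plus DHA against Control was -0.26 ± 0.149 (limma adjusted p = 0.606), with an interval from -0.61 to 0.08, and leaving out Western plus DHA 2 gave -0.12 and leaving out array 1 of that diet gave -0.41. Western against Control stood at -0.08 ± 0.149 and Western plus DHA against Western at -0.19 ± 0.149. The latter was -0.04 and -0.33 with the same arrays left out.

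The dim Gja5 probe set, 1387207_at, read 3.91 and 4.24 in Control, 4.15 and 4.05 in Western and 4.18 and 3.63 in Western plus DHA. Its log2 differences were 0.03, -0.17 and -0.20 in the order of comparisons given for Gja1, and all diets overlapped. Western plus DHA 2 was the lowest array for both Gja5 probe sets. That array also had the lowest mean of the endothelial markers (6 measured of 7 listed), at 9.02 against 9.12 to 9.37 on the others, and 4 of the 6 were lowest there. The 4 measured of 6 arterial endothelial markers had a mean of 7.44 on it and 7.48 to 7.56 elsewhere. Of these 4, Sox17 and the connexin gene Gja4 were lowest there, Dll4 was not, and Hey1 was highest there. The part of endothelial RNA in the Gja5 value was not tested. Of the atrial markers, Myl7, Myl4 and Sln had higher means and Dkk3 and Stard10 had lower means on Western plus DHA than on the control diet, and their part was not tested. By the bright probe set the order was Control, Western, Western plus DHA, with no neighbours past the test.

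**Figure D2:**
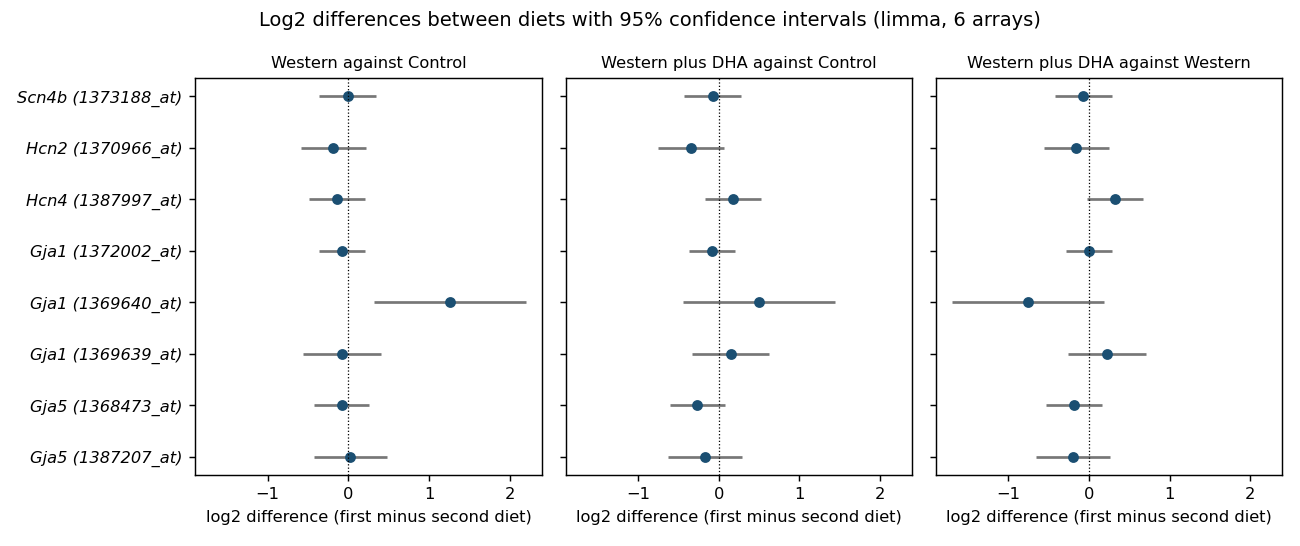
Log2 difference between diets (x axis, first minus second diet) of each of the 8 probe sets, with points for the estimate and lines for the 95% confidence interval of the limma fit. Of the 24 intervals, that of Gja1 1369640_at in Western against Control, from 0.32 to 2.20, is the one that leaves out 0, and it did not pass after adjustment.

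Related genes were read from 6 lists of channel subunits, partners and conduction genes, each gene by its probe set with the highest mean. Of the 81 genes measured, 0 passed the test in each comparison, with a lowest adjusted p of 1, 0.562 and 0.983 in limma. At an unadjusted p under 0.05 stood 2, 9 and 2 of them, or 2.47%, 11.1% and 2.47%, beside 2.83%, 8.87% and 4.06% of all probe sets. The values below are therefore descriptions of genes that did not pass.

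The other sodium channel subunits had 11 of 13 listed genes measured, of which 3 reached the median level. In Western plus DHA against Control 10 of the 11 lay above 0, with a median of 0.17 beside 0.03 over all genes, and 1 lay below 0. Of all probe sets 56.6% lay above 0 in this comparison, and none of the 10 had an unadjusted p under 0.05. Among the 10, Scn7a and Scn3b reached the median level and the rest were dim, so the count and the median rest mostly on dim probe sets. The gene below 0 was Scn1a, a pore-forming subunit of neurons that the heart also carries, at -0.29 ± 0.126. Of those above 0, Scn7a, an atypical alpha subunit that senses sodium, differed by 0.16. The sensory neuron subunit Scn10a differed by 0.21 and the neuronal subunit Scn2a by 0.25, and both were dim. In Western against Control the median of the 11 was 0.06.

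The sodium channel partners had 11 of 13 genes measured and a median between -0.03 and 0.03 in the 3 comparisons. Dystrophin (Dmd), which anchors the membrane complex, stood 0.19 ± 0.127 higher in Western than in Control, and the channel-binding factors Fgf13 and Fgf14 differed by 0.19 ± 0.163 and 0.23 ± 0.203. For both factors the arrays of the diets overlapped and Control 1 was lowest, at 8.76 and 2.61, and Fgf14 was dim. The desmosomal gene Pkp2 differed by -0.15 in Western plus DHA against Control. All differences of this list lay between -0.18 and 0.25.

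Of the HCN relatives and partners 6 of 8 were measured. Hcn3 was dim and read 4.61 and 4.61 in Control, 4.65 and 4.40 in Western and 4.66 and 4.73 in Western plus DHA. All 3 of its differences lay within -0.08 to 0.17. Pex5l, an HCN-binding protein of neurons, was dim and stood 0.37 ± 0.145 above Control in Western plus DHA. Flna, a filamin that binds the channel and crosslinks actin, differed by -0.47 ± 0.2 in the same comparison, with Control 1 highest at 9.27 and Western plus DHA 2 lowest at 8.39. Cav3, the muscle caveolin, differed by -0.07.

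The remaining connexins and pannexins had 11 of 20 genes measured, 3 of them at the median level or above. Gjb1, a connexin of liver and Schwann cells, was dim and read 4.54 and 4.92 in Control, 5.16 and 5.18 in Western and 5.09 and 5.08 in Western plus DHA. Its arrays on both Western diets were above the Control arrays, which held for 17.5% (Western) and 22% (Western plus DHA) of all probe sets. The log2 differences were 0.44 ± 0.149 and 0.35 ± 0.149. Gjc1, a connexin of conduction tissue and smooth muscle, read 7.22 and 7.80 in Control, 7.69 and 7.68 in Western and 7.88 and 7.80 in Western plus DHA. Control 1 alone was low, and the difference in Western plus DHA against Control was 0.32 ± 0.185. Gja4 differed by 0.09 and -0.06 from Control in Western and Western plus DHA. The dim genes Gjd2, a connexin of neurons, and Panx3, a pannexin of bone and cartilage, differed by 0.30 and -0.26 in Western against Control.

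At the intercalated disc, where gap junctions sit among the desmosomes and adherens junctions, 18 of 23 listed genes were measured and 16 reached the median level. In Western plus DHA against Control 11 lay below 0 and 7 above, with a median of -0.10 beside 0.03 over all genes. The junctional plakoglobin Jup read 10.28 and 9.57 in Control, 9.74 and 10.01 in Western and 9.47 and 9.39 in Western plus DHA, a log2 difference of -0.49 ± 0.22 in that comparison. Xirp1, an actin-binding disc protein, differed by -0.82 ± 0.346 and Nrap, which ties actin to the disc, by -0.25. The kinase Src, which phosphorylates connexins, was dim and also differed by -0.25. Jup and Xirp1 were both highest on Control 1, as Hcn2 was. Of all probe sets 21.1% were highest on Control 1, as were 3 of the 8 channel probe sets and 19 of the 81 related genes. On the same array 27.7% of all probe sets were lowest, as were 2 of the 8 and 21 of the 81.

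Among conduction system regulators and markers 27 of 28 were measured and 17 reached the median level. Kcne1, a potassium channel subunit, was dim and read 4.09 and 3.79 in Control, 3.35 and 3.60 in Western and 3.52 and 3.49 in Western plus DHA. Both Western diets were below Control on every array, which held for 13.5% (Western) and 15.1% (Western plus DHA) of all probe sets. The differences were -0.46 ± 0.151 and -0.44 ± 0.151. Cacna1g, a T-type calcium channel of pacemaker cells, was dim and differed by -0.43 ± 0.158 in Western plus DHA against Control. Nkx2-5, the cardiac homeobox factor, differed by -0.71 ± 0.286 in that comparison, with Control 1 highest at 10.28. Id2, a regulator of conduction system fate, stood 0.34 higher in Western plus DHA than in Western. The list medians were -0.02, -0.02 and -0.08.

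**Figure D3:**
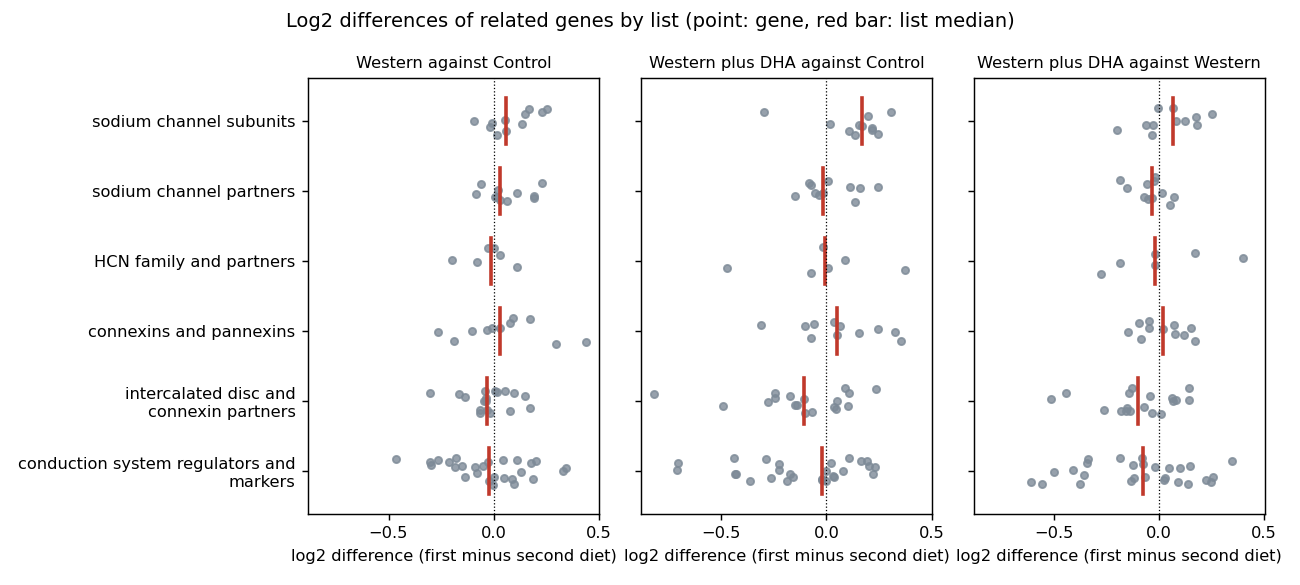
Log2 difference between diets (x axis, first minus second diet) of each measured gene (point) in the 6 related lists (y axis), with a red bar at the list median. The widest spread is in Western plus DHA against Control, where Xirp1 stands at -0.82. In that comparison the sodium channel subunits, most of them dim, have their median at 0.17. In all panels 0 of the points passed the test.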

How the data were processed

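Per the submitters' processing notes the authors used RMA and R 2.11.0, and the deposited table holds log2 expression values for 31099 probe sets on 6 arrays. RMA as a method sets arrays to a common distribution, so overall differences in RNA amount are not measured. The build and any earlier steps are, in the sources used here, not given. The authors also deposited diet means, log2 differences and p-values, and their differences matched those computed here within 5e-08. Precision is limited by the number of arrays, with a median standard error of 0.144 over all differences.

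The tests left out 57 Affymetrix controls. The platform annotation gave the symbols, brought up to date by Entrez number in the GRCr8 RefSeq table, with 20826 probe sets of 1 symbol, 436 of several and 9780 of none. The test was limma 3.58.1 under R 4.3.3 (lmFit and eBayes, 1 mean a diet, 3 residual and 5.28 prior degrees of freedom, two-sided), and the steps were tested on simulated data. Groups came from the labels, which name no batch. The members and lists were chosen with earlier results of these data known. Of each list, the genes with the 4 smallest p of the F test over diets were named, with the near relatives Hcn3, Gja4 and Gjc1, and some items are not reported here. Genes of a like pattern were to be named for members whose brightest probe set spanned at least 0.5 between diet means, and 0 members did. Alternatives were a block for the replicate number, dim probe sets removed, 3 other normalizations, a trended robust prior, array weights, fits of 4 arrays, a threshold of 0.1, averaged probe sets of a gene, the authors' differences, and each array left out.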

Additional observations from a re-analysis of the deposited data

How the results depend on the processing

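Under every alternative run, 0 of the 8 probe sets were called in each comparison, and the lowest adjusted p of any was 0.162 (Hcn2 in Western plus DHA against Control without Control 2, limma). Of 357 member values recomputed, 332 kept their direction and 25 changed sign. Many of the 332 only repeat the reported difference. The replicate block, removal of dim probe sets, the trended robust prior and array weights left each difference unchanged. So did fits of only the compared arrays, leaving out an array of the diet not compared, and the authors' differences. All 25 sign changes came from the remaining settings, so the 332 do not measure how stable the directions are. Averaging weighs the Gja1 probe sets equally, and 1369640_at had the largest difference of them in both comparisons with Control. Apart from leaving out an array, sign changes came when these probe sets were averaged (0.37 in Western against Control, 0.19 in Western plus DHA against Control). They also came with quantile normalization again and cyclic loess for Gja1 1372002_at in Western plus DHA against Western (0.0067 and 0.0060), Scn4b in Western against Control (0.0195 and 0.0068) and Gja5 1387207_at in Western against Control (-0.0126 and -0.0155). These values lie near 0 in the reported fit too, and the cause was not tested.

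The differences that changed sign with 1 array left out had these ranges. Western against Control ranged from -0.20 to 0.0435 for Gja5 1368473_at, -0.14 to 0.20 for Gja5 1387207_at, -0.23 to 0.0791 for Gja1 1369639_at, -0.45 to 0.0799 for Hcn2 and -0.15 to 0.14 for Scn4b. Western plus DHA against Control ranged from -0.16 to 0.46 for Gja1 1369639_at, -0.13 to 1.13 for Gja1 1369640_at, -0.22 to 0.0742 for Scn4b and -0.45 to 0.10 for Gja5 1387207_at. Western plus DHA against Western ranged from -0.0856 to 0.53 for Gja1 1369639_at, -0.0729 to 0.0652 for Gja1 1372002_at, -0.20 to 0.0625 for Scn4b and -0.47 to 0.0784 for Gja5 1387207_at. Of those that kept their sign, Western plus DHA against Western ranged from -1.39 to -0.13 for Gja1 1369640_at, -0.33 to -0.04 for Gja5 1368473_at, 0.16 to 0.47 for Hcn4 and -0.21 to -0.10 for Hcn2. Western plus DHA against Control ranged from -0.41 to -0.12 for Gja5 1368473_at, 0.02 to 0.33 for Hcn4, -0.60 to -0.08 for Hcn2 and -0.15 to -0.02 for Gja1 1372002_at, and Western against Control from 0.82 to 1.70 for Gja1 1369640_at, -0.24 to -0.04 for Hcn4 and -0.12 to -0.04 for Gja1 1372002_at.

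Over all probe sets, 1 was called in Western plus DHA against Control, 0 when only its 4 arrays were fitted, 2 at an adjusted p under 0.1, and 0 to 2 with 1 array left out. In Western plus DHA against Western 0 were called, and 1 with quantile normalization again, median centring, the trended robust prior, array weights or the threshold of 0.1. The F test called 1, and 0 with any 1 array left out. With the replicate number as a block the counts were 0, 1, 0 and 1, as without it, and the lowest adjusted p of a member was 0.631. The differences between arrays 1 and 2 correlated across probe sets at -0.206 between Control and Western. They correlated at 0.202 between Control and Western plus DHA, and at -0.228 between Western and Western plus DHA. Correlations of mixed sign cannot settle whether arrays of the same number were paired. Dim probe sets (Hcn4, Gja1 1369639_at and Gja5 1387207_at) had no value when dim ones were removed.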
